A study of Mus musculus with 16 samples.

Results

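The mouse mitochondrial genome contributed 37 of the 45594 genes in the deposited gene table, chosen as every row placed on chromosome MT: 13 protein genes, 2 ribosomal RNA genes and 22 transfer RNA genes. They were measured in total RNA of rod photoreceptors, which serve dim-light vision, sorted by flow cytometry from C57BL/6J mice carrying Nrlp-GFP, a reporter in which the promoter of the rod gene Nrl drives green fluorescent protein. Every age carried this reporter, so there was no group without it, and the libraries were from 3, 12, 18 and 24 months of age (3M, 12M, 18M and 24M), with 4 biological replicates each. The sources used here do not say if 1 replicate is a single mouse or several pooled, nor the sex of the animals. Each library held 20579144 to 28791777 estimated counts. Of the 37 genes, 25 reached 5 CPM (counts put on one scale by library size) in at least 4 libraries and were tested, namely the 13 protein genes, both ribosomal RNA genes and 10 transfer RNA genes. The other 12 transfer RNA genes fell below that level. In bulk RNA, fewer cells of a type and less RNA per cell cannot be told apart.

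The mitochondrial genome is a small circle that encodes core subunits of the respiratory chain and ATP synthase together with the ribosomal and transfer RNAs needed to translate them. Both strands are transcribed into long precursors by a dedicated polymerase, Polrmt, and most messenger and ribosomal RNAs are freed when the transfer RNAs between them are cut out. Nearly all protein genes lie on one strand, and mt-Nd6 with a minority of the transfer RNA genes lies on the other. Rods pack mitochondria into the inner segment, where they supply the ion pumps that sustain the dark current.

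The sequences that matter for reading the values are those of short genes and of genes that share sequence, taken from the GENCODE M21 transcripts of GRCm38. Among transfer RNA genes, mt-Tg and mt-Tv had the highest levels, mt-Th had the smallest p for any difference among ages, and mt-Tc and mt-Ty were among the lowest. In these 5, capitals mark the anticodon, found as bases 3 to 5 of a 7-base loop closed by 5 base pairs.

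mt-Tg (chrMT:9391-9458, plus strand): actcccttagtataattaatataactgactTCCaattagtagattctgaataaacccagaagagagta

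mt-Tv (chrMT:1025-1093, plus strand): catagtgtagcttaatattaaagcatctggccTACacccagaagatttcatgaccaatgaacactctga

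mt-Th (chrMT:11546-11612, plus strand): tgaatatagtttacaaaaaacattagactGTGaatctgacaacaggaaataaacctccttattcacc

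mt-Tc (chrMT:5192-5257, minus strand): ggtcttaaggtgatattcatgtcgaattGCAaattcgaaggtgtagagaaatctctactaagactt

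mt-Ty (chrMT:5260-5326, minus strand): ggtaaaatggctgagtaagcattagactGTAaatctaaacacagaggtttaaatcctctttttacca

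The end of mt-Atp8 overlaps the start of mt-Atp6 by 43 bases on the same strand, so reads inside this stretch belong to both. Capitals mark the start codon of mt-Atp6 and the stop codon of mt-Atp8.

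mt-Atp8 and mt-Atp6 (chrMT:7927-7969, plus strand): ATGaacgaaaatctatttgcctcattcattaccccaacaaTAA

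Several protein genes also have near-identical nuclear copies on chromosome 1. The 3′ ends of mt-Atp6 and mt-Co2 are set against those of Gm10925 and Gm28661, and capitals mark the 3 bases past the end of the annotated copy.

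mt-Atp6 (chrMT:8548-8607, plus strand): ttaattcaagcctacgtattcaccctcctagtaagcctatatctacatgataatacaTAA

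Gm10925 (chr1:24613974-24614030, minus strand): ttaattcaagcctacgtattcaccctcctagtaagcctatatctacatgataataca

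mt-Co2 (chrMT:7637-7696, plus strand): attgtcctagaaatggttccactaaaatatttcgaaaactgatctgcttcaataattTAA

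Gm28661 (chr1:24614885-24614941, minus strand): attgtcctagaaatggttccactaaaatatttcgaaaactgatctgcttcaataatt

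Gm29216 matched mt-Co1 over 483 bases with 1 difference, A1066T, counted from the first base of mt-Co1 and shown in capitals.

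mt-Co1 (chrMT:6390-6423, plus strand): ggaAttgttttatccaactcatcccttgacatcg

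Gm29216 (chr1:24616155-24616188, minus strand): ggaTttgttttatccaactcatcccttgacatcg

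Ribosomal RNA made up most of the mitochondrial signal. All 37 genes took 1.16% to 2.35% of a library's counts, and mt-Rnr1 and mt-Rnr2 held 79.5% to 89.2% of that mitochondrial share. Per length, mt-Rnr1, the small-subunit ribosomal RNA, stood at 6350.1 ± 1171 CPM per kb, and mt-Rnr2, the large-subunit ribosomal RNA, at 6225 ± 1226 CPM per kb (SD, n = 16). The library kit removes ribosomal cDNA, as background knowledge of the method, so these levels are what was left after removal, and its efficiency per library was not tested. Among protein genes counted without the nuclear copies described further on, the level per kb was highest for mt-Co1, the catalytic subunit of cytochrome c oxidase, at 519.8 ± 131, which was above the next gene in 16 of 16 libraries. mt-Cytb, the cytochrome b of complex III, followed at 392 ± 135 CPM per kb, and mt-Atp6, a proton-channel subunit of ATP synthase, at 369 ± 127. Of these last 2, mt-Cytb was the higher in 8 of 16 libraries. That order turned once the copies were added, a setting chosen after seeing the data: mt-Atp6 with Gm10925 then stood at 1038 ± 333 CPM per kb, above mt-Co1 with its copy, at 529 ± 132, in 16 of 16 libraries and above mt-Cytb in 16 of 16. mt-Co2 with its copy stood at 304 ± 95.5 CPM per kb and mt-Co3 with its copy at 258 ± 48.4. The lowest was mt-Nd3, a complex I subunit, at 72.1 ± 15.6 CPM per kb, below mt-Nd2 in 14 of 16 libraries. Without the copies, mt-Nd1 and mt-Atp8, mt-Nd5 and mt-Co3, mt-Co3 and mt-Nd4l, mt-Nd6 and mt-Co2, and mt-Co2 and mt-Nd4 were neighbours of which the first named was the higher in 7 to 9 of 16 libraries.

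Transfer RNA genes, 59 to 75 bases long, had mean CPM that differed 216-fold between the highest and the lowest. Mean CPM differed 32-fold among the protein genes, but these are 204 to 1824 bases long. Per kb the protein genes ran between 72.1 and 519.8 CPM. Means of transfer RNA genes ran to 106 CPM for mt-Tg, the glycine transfer RNA, against 0.49 CPM for mt-Ty, the tyrosine transfer RNA. mt-Tv, the valine transfer RNA that lies between the ribosomal RNA genes, averaged 48 CPM, mt-Tk (lysine) 25.2 CPM, mt-Tp (proline) 23.2 CPM and mt-Tn (asparagine) 21.4 CPM. The 12 genes left untested averaged 0.49 to 3.72 CPM, the highest of them being mt-Tw, the tryptophan transfer RNA. Reads were 125 bases long, more than any of these genes, and a read from a precursor and one from a mature transfer RNA cannot be told apart in these counts. mt-Nd6 and 8 transfer RNA genes lie on the minus strand. The kit marks strand, but the sources used here do not say if the counting used it, so reads of these genes and of the opposite strand's precursor may not be separated.

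**Figure D1:**
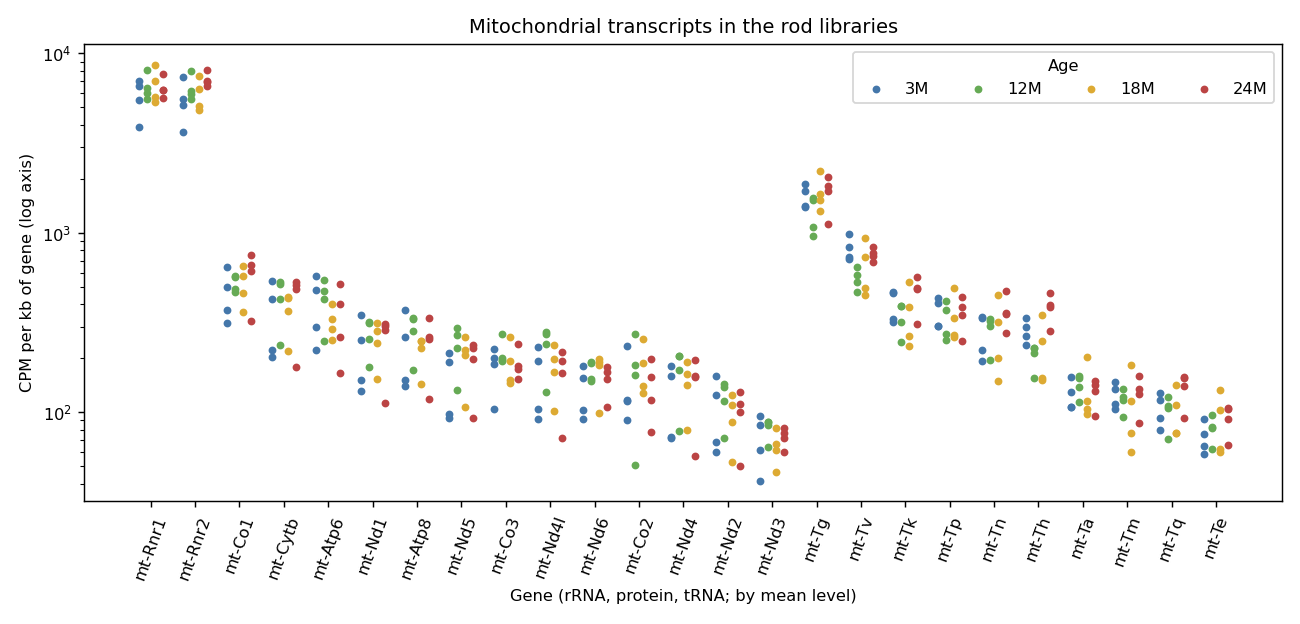
CPM per kb of gene, on a log axis, for the 25 tested mitochondrial genes, with 1 point per library and 4 libraries per age. Both ribosomal RNA genes lie above every protein gene, and the points of the 4 ages overlap in most genes.

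Levels of the protein genes varied widely among libraries of 1 age. mt-Cytb measured 617, 490.4, 233 and 253 CPM in the 3M libraries 1 to 4, 492, 595, 609 and 271 at 12M, 419, 501, 498 and 252 at 18M and 608, 584, 203 and 557 at 24M. It was low in 5 libraries that came from all 4 ages, 3M replicates 3 and 4, 12M replicate 4, 18M replicate 4 and 24M replicate 3, where it lay between 203 and 271 CPM, against 419 to 617 CPM in the other 11. These libraries were picked by this value, so their values are given as a description, with no test. Of the other 12 protein genes, 7 had exactly these 5 libraries as their lowest, namely mt-Nd1, mt-Nd2, mt-Atp8, mt-Nd4l, mt-Nd4, mt-Nd5 and mt-Nd6. mt-Co1, mt-Co2 and mt-Nd3 shared 4 of them, mt-Atp6 shared 3 and mt-Co3 shared 2. mt-Nd6 lies on the opposite strand to the other protein genes, and its reads may not be separated from those of the other strand's precursor. The 10 transfer RNA genes tested shared only 1 or 2 of the 5, and mt-Rnr1 shared 4 and mt-Rnr2 shared 3.

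Ratios to mt-Cytb within a library had a narrower range for protein genes than for transfer RNA genes, though mt-Co3 came close to the transfer RNA genes. mt-Nd1 over mt-Cytb stayed between 0.476 and 0.634 over the 16 libraries, a 1.33-fold range, although mt-Nd1 itself ranged 3.1-fold. mt-Nd4 over mt-Cytb ranged 1.41-fold and mt-Nd5 over mt-Cytb 1.53-fold. mt-Nd6 over mt-Cytb ranged 1.99-fold. mt-Nd3 over mt-Cytb ranged 2.53-fold and mt-Co3 over mt-Cytb 3.83-fold, beside 3.02-fold for mt-Rnr1 and 3.34-fold for mt-Rnr2. The transfer RNA genes ran between 4.09-fold for mt-Ta, the alanine transfer RNA, and 8.88-fold for mt-Th. Among the 24M libraries, replicate 3 had the lowest mt-Cytb, at 203 CPM, and the highest mt-Th, at 30.9 CPM. The spread within ages, as a standard deviation of log2 CPM, was 0.34 to 0.70 for the protein genes, 0.29 to 0.46 for the tested transfer RNA genes and 0.29 for each ribosomal RNA gene, against a median of 0.19 over all 12177 genes tested.

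**Figure D2:**
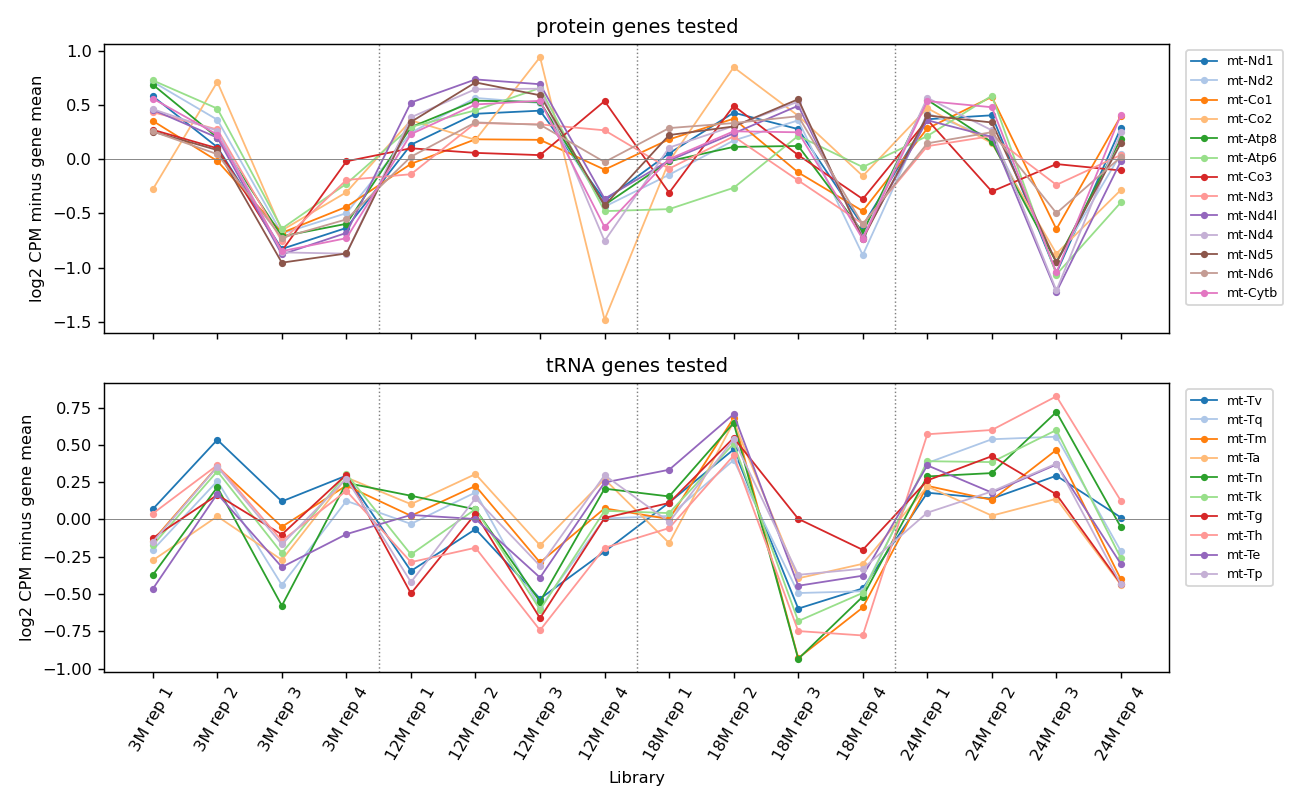
log2 CPM of each tested protein gene (upper panel) and transfer RNA gene (lower panel) in each library, less the gene's mean over the 16 libraries, with dotted lines between ages. Most protein genes dip together in 5 libraries from all 4 ages, and the transfer RNA genes follow another course.

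Library measures differed along with these levels, although their ranges overlapped. In the 5 libraries with low mt-Cytb, small noncoding RNA took 15.7% to 22.6% of counts, against 10.7% to 20.1% in the other 11. The length slope, which is how log2 CPM of nuclear genes in a library shifts per doubling of transcript length, was -0.082 to -0.0015 in the 5, all below 0, against -0.043 to 0.084 in the other 11. Summed CPM of 10 Müller glia markers was 155 to 457 in the 5 and 125 to 284 in the 11, and that of 10 dissociation stress genes 498 to 817 and 248 to 762. Across the 16 libraries, the transfer RNA sum on the log2 scale correlated with the share of small noncoding RNA, a class that leaves out the mitochondrial transfer RNAs, at a Pearson r = 0.68 and a Spearman coefficient of 0.72 (permutation p = 0.0043 and 0.0022, adjusted over 6 relations 0.026 and 0.013). With the 2 most distant libraries by this share left out, r was 0.53. It also correlated with the length slope at r = -0.63 and a Spearman coefficient of -0.63 (permutation p = 0.0088 and 0.011, adjusted 0.026 and 0.032), and r was -0.43 without the 2 farthest. The ribosomal RNA sum gave r = -0.081 and a Spearman coefficient of -0.12 with the length slope (permutation p = 0.77 and 0.66). With the share of small noncoding RNA it gave r = 0.30 and a Spearman coefficient of 0.33 (permutation p = 0.27 and 0.22). The protein sum fell into separate clusters of 5 and 11 libraries, so no coefficient over all 16 is given for it, and the 2 of the 6 relations computed within the 11 are not read, because the protein level itself sets those libraries apart. The part of these measures in the mitochondrial levels was not tested.

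The estimation also assigned counts to nuclear genes nearly or fully identical to mitochondrial ones. The annotation holds 11 nuclear genes at least 95% identical to a mitochondrial gene over at least 100 bases, 7 of them in a run on the minus strand of chromosome 1 (GRCm38, chr1:24611535-24616197), annotated as unprocessed pseudogenes. Only 4 of them, all in that run, averaged at least 5 CPM. Gm10925 (chr1:24613974-24614651) is identical to mt-Atp6 over 678 bases, Gm28661 (chr1:24614885-24615565) to mt-Co2 over 681 and Gm28437 (chr1:24613189-24613971) to mt-Co3 over 783. Gm29216 (chr1:24615706-24616197) matches mt-Co1 at 482 of 483 bases. The split of reads between such a pair rests on how the estimation shares them. Values of mt-Atp6, mt-Co2, mt-Co3 and these 4 copies taken alone are therefore uncertain.

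Gm10925 averaged 456 ± 162 CPM and mt-Atp6 251 ± 86.4 CPM (SD, n = 16), and the copy held the larger count in 15 of 16 libraries. The copy's share of the pair was 45.4% to 76%. For mt-Co2 the share of Gm28661 ran between 25.3% in 18M replicate 2 and 78.8% in 12M replicate 4, and for mt-Co3 the share of Gm28437 between 5.78% in 24M replicate 1 and 50.6% in 24M replicate 2. Summed with its copy, mt-Atp6 over mt-Cytb ranged 1.58-fold over the libraries, against 2.77-fold alone, and mt-Co2 over mt-Cytb 1.5-fold, against 2.72-fold alone. The sum of mt-Co2 and its copy had the same 5 lowest libraries as mt-Cytb. mt-Co3 with its copy still ranged 3.02-fold over mt-Cytb. Gm29216 measured 27.3, 49.1, 34.7 and 20.1 CPM in 18M libraries 1 to 4, against 4.21, 0, 2.61 and 3.45 CPM in 3M libraries, and these ranges did not overlap. Its log2 fold change at 18M was 3.67 (SE 0.89, edgeR adjusted p = 0.0374), a call lost in 13 of 29 alternatives. In 12M libraries 1 to 4, Gm29216 measured 27.5, 16.5, 8.24 and 40.7 CPM, also above every 3M library. Its log2 fold change at 12M was 3.17 (SE 0.88, edgeR adjusted p = 0.12). At 24M it measured 0, 0, 3.22 and 0 CPM, and it made up at most 5.31% of the pair in any library. The edgeR F-test for any difference among ages called Gm29216 (adjusted p = 0.0084), and the linear term for age did not (adjusted p = 0.89).

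**Figure D3:**
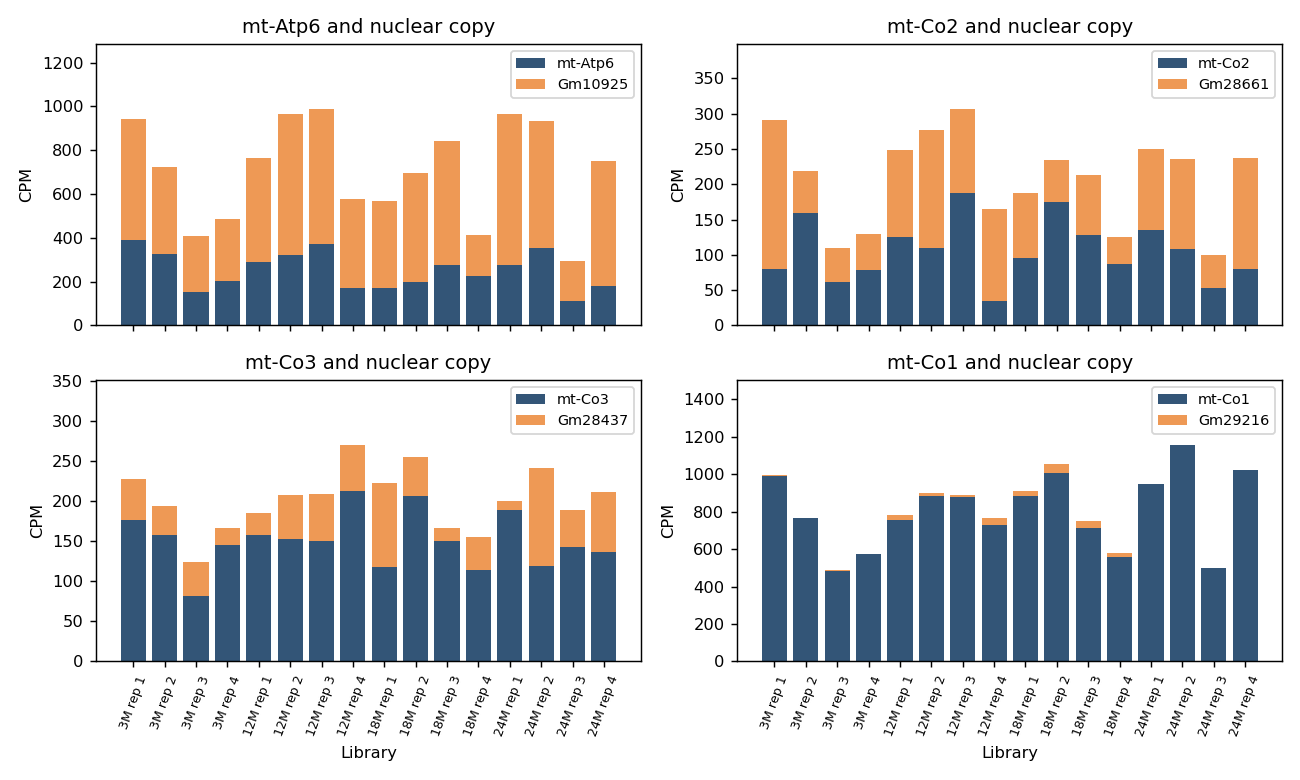
Stacked bars of CPM for 4 mitochondrial protein genes and their nuclear copies in each library, from 0. The copy Gm10925 holds 45.4% to 76% of its pair with mt-Atp6, and Gm29216 at most 5.31% of its pair with mt-Co1.

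No mitochondrial gene passed the test at any later age against 3M. By edgeR's quasi-likelihood test with Benjamini-Hochberg adjustment over 12177 genes, 0 of the 25 tested members were called at 12M (background 1.39% of genes called), 0 at 18M (background 2.64%) and 0 at 24M (background 4.25%). The F-test for any difference among ages called 0 (background 2.82%), and so did the linear term for age (background 4.8%). Unadjusted p was under 0.05 for 1 member at 12M, 0 at 18M and 0 at 24M, for 1 in the F-test and 0 in the linear term. Over all genes tested that share was 9.15% at 12M, 12.4% at 18M, 14% at 24M, 10.8% in the F-test and 14.6% in the linear term. DESeq2 called 1 member in the test for any difference, mt-Th, and 0 in the others. Limma voom with library quality weights called 8 members at 12M, where it called 5827 of the 12177 genes. Standard errors of the members' log2 fold changes at 24M were 0.19 to 0.42, with a median of 0.25, against 0.14 over all genes. The members' median log2 fold change was 0.19 at 12M, 0.067 at 18M and 0.17 at 24M, beside -0.0032, 0.0067 and 0.011 over all genes tested. The 3 comparisons share the 3M libraries, of which replicates 3 and 4 are among the 5 with low mt-Cytb.

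mt-Rnr2 came nearest to a call at 24M. It measured 11032, 12823, 10439 and 10899 CPM in 24M libraries 1 to 4, against 11632, 8830.1, 5785 and 8115 CPM in 3M libraries. The ranges overlapped, through 3M replicate 1, and the log2 fold change was 0.40 (adjusted p = 0.391, SE 0.20). mt-Rnr1 averaged 6165 ± 833 CPM at 24M, against 5477 ± 1329.6 at 3M, a log2 fold change of 0.17 (adjusted p = 0.804, SE 0.19). The sum of both was 14067 ± 3685 CPM in 3M, 16376 ± 2760.5 in 12M, 15746 ± 3337 in 18M and 17463 ± 1878 in 24M libraries (SD, n = 4 each). On the log2 scale the differences from 3M were 0.24 at 12M (exact p = 0.343), 0.18 at 18M (exact p = 0.543) and 0.35 at 24M (exact p = 0.171, adjusted 0.643). These and the other sums were compared by two-sided exact permutation of libraries, adjusted over 15 values, where 4 against 4 libraries allow no p below 0.0286.

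Of the complex I genes, mt-Nd5 had the highest fold change at 12M. It measured 415, 535, 492 and 244 CPM in 12M libraries 1 to 4, against 390.4, 347, 169 and 179 CPM in 3M libraries. The ages overlapped, and its log2 fold change was 0.64 (adjusted p = 0.655, SE 0.36). At 18M it was 0.43 (adjusted p = 0.655, SE 0.35) and at 24M 0.34 (adjusted p = 0.775, SE 0.35). mt-Nd4l averaged 68.5 ± 20.5 CPM at 12M, against 46 ± 20.1 at 3M, with a log2 fold change of 0.57 (adjusted p = 0.68, SE 0.36). At 24M its value was 0.061 (adjusted p = 0.973, SE 0.36). mt-Nd4, which overlaps mt-Nd4l by 7 bases, had 0.45 (adjusted p = 0.731, SE 0.41) at 12M. All 13 protein genes had a fold change above 0 at 12M, though none passed the test. With the length slope as a covariate, only mt-Nd5, mt-Nd4l, mt-Nd4 and mt-Cytb were followed at 12M. Of these, mt-Nd4 and mt-Cytb turned to -0.10 and -0.15, and mt-Nd5 and mt-Nd4l stayed above 0. The signs of the other protein genes under this covariate were not examined at 12M. mt-Nd6 measured 95.7, 98.9, 103 and 51.7 CPM in 18M libraries, against 93.8, 81, 47.4 and 53.4 CPM in 3M libraries, and 18M replicate 4 lay within the 3M range. Its log2 fold change was 0.34 (adjusted p = 0.594, SE 0.24) at 18M and 0.19 (adjusted p = 0.827, SE 0.24) at 24M. mt-Nd1 had 0.19 (adjusted p = 0.89, SE 0.34) at 24M.

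Outside complex I, mt-Co1 measured 946, 1157, 497 and 1025 CPM in 24M libraries, against 993, 768, 485 and 573 CPM in 3M libraries. 3 of the 4 libraries at 24M lay at or above 946 CPM, as did 3M replicate 1, and the log2 fold change was 0.36 (adjusted p = 0.612, SE 0.26). mt-Cytb had 0.29 (adjusted p = 0.835, SE 0.38) at 24M and 0.30 (adjusted p = 0.762, SE 0.38) at 12M. mt-Atp6 alone had -0.22 (adjusted p = 0.873, SE 0.34) at 24M and -0.30 (adjusted p = 0.732, SE 0.34) at 18M. With the reads of Gm10925 added, the 18M value was -0.021 (adjusted p = 0.981) and the 24M value 0.20 (adjusted p = 0.88), so the direction at 24M turned with the treatment of the copy. mt-Co2 alone had -0.017 (adjusted p = 0.995, SE 0.42) at 24M and 0.36 (adjusted p = 0.742, SE 0.42) at 18M. With Gm28661 added it had 0.021 at 18M (adjusted p = 0.98) and 0.13 at 24M (adjusted p = 0.928). The 13 protein genes were also summed, without the reads of the nuclear copies. This sum was 3524, 3599.8, 1539 and 3143 CPM in 24M libraries, against 3671, 3061, 1589 and 1883 CPM in 3M libraries. The difference of means was 0.22 on the log2 scale, with an exact p of 0.771 and an adjusted p of 0.827. Means of the sum were 2551 ± 981 CPM in 3M, 3144 ± 693 in 12M, 2799 ± 661 in 18M and 2951 ± 963 in 24M libraries (SD, n = 4 each), with an exact p of 0.286 at 12M and 0.686 at 18M.

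**Figure D4:**
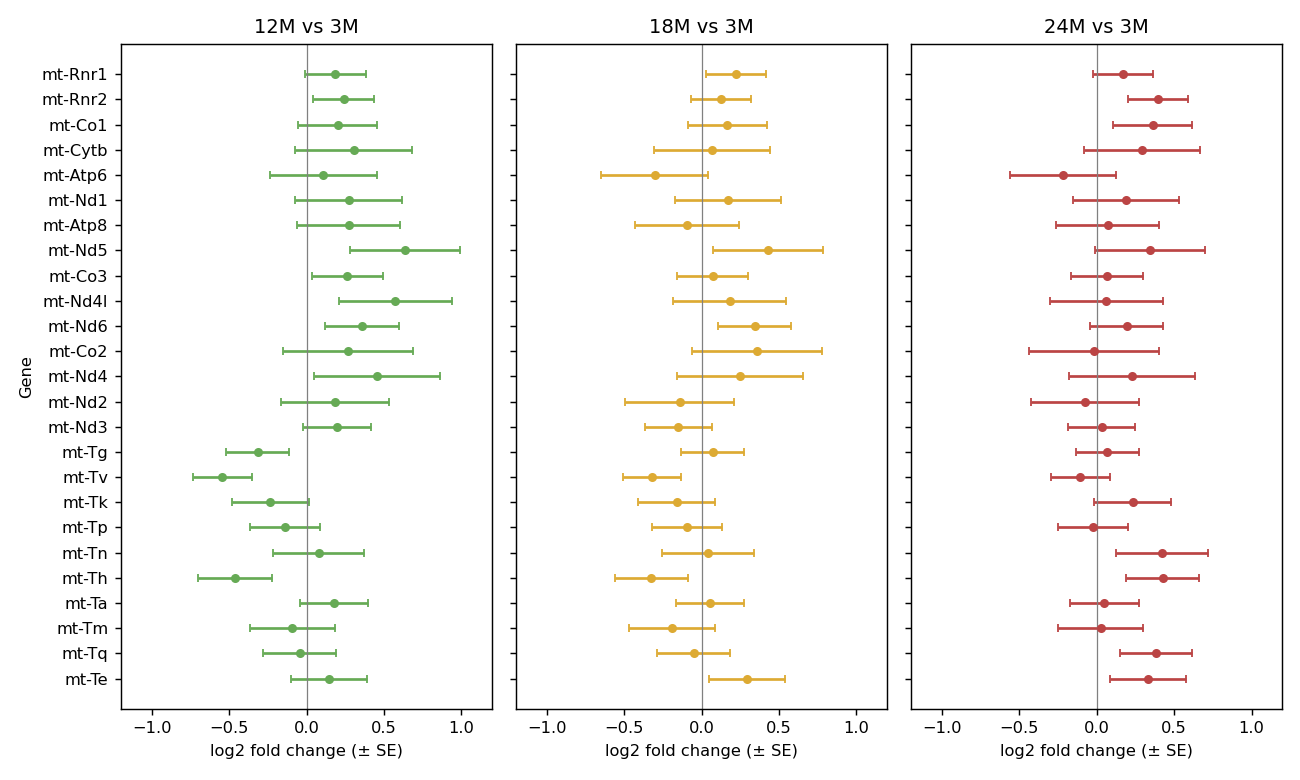
edgeR log2 fold change of each tested mitochondrial gene, with its standard error, at each later age against 3M. No value passed an adjusted p of 0.05, and the transfer RNA genes mt-Tv and mt-Th had the lowest values at 12M.

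Among transfer RNA genes, mt-Tv and mt-Th did not overlap between 12M and 3M libraries. mt-Tv measured 36.8, 44.7, 32.3 and 40.3 CPM in 12M libraries 1 to 4, against 49, 67.7, 50.8 and 57.3 CPM in 3M libraries. Its log2 fold change was -0.55 (adjusted p = 0.28, SE 0.19), with an unadjusted p of 0.0115, and every 12M library lay below every 3M library. mt-Th measured 14.3, 15.3, 10.4 and 15.3 CPM in 12M libraries, against 17.9, 22.4, 15.8 and 19.9 CPM in 3M libraries, a log2 fold change of -0.46 (adjusted p = 0.608, SE 0.24). At 24M mt-Th stood at 25.9, 26.4, 30.9 and 19 CPM, with 3 libraries above every 3M library, and its log2 fold change was 0.43 (adjusted p = 0.466, SE 0.23). At 18M it was -0.33 (adjusted p = 0.613, SE 0.24). Its edgeR F-test for any difference among ages gave an adjusted p of 0.161. Groups did not overlap for 2 of 25 members at 12M, which is 8%, beside 5.09% of all genes tested. They overlapped for every member at 18M (background 13.7%) and at 24M (background 10.6%). mt-Tn and mt-Tq, the asparagine and glutamine transfer RNAs of the minus strand, had 0.42 (adjusted p = 0.609, SE 0.30) and 0.38 (adjusted p = 0.525, SE 0.23) at 24M. mt-Tg had -0.32 (adjusted p = 0.68, SE 0.20) at 12M.

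The sum over all 22 transfer RNA genes averaged 306 ± 50 CPM in 3M, 255 ± 48.3 in 12M, 290.1 ± 93.8 in 18M and 329 ± 61.3 in 24M libraries (SD, n = 4 each). Exact permutation against 3M gave a p of 0.2 at 12M, 0.657 at 18M and 0.743 at 24M. The ratio of transfer RNA to protein sums was 0.0765, 0.082, 0.0528 and 0.133 in 12M libraries, against 0.0718, 0.115, 0.165 and 0.183 in 3M libraries. Its difference at 12M was -0.63 on the log2 scale, with an exact p of 0.2 and an adjusted p of 0.643, and the ranges overlapped. At 24M the ratio ran between 0.0762 and 0.244, the top value being 24M replicate 3, against 0.0718 to 0.183 at 3M (exact p = 0.829).

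**Figure D5:**
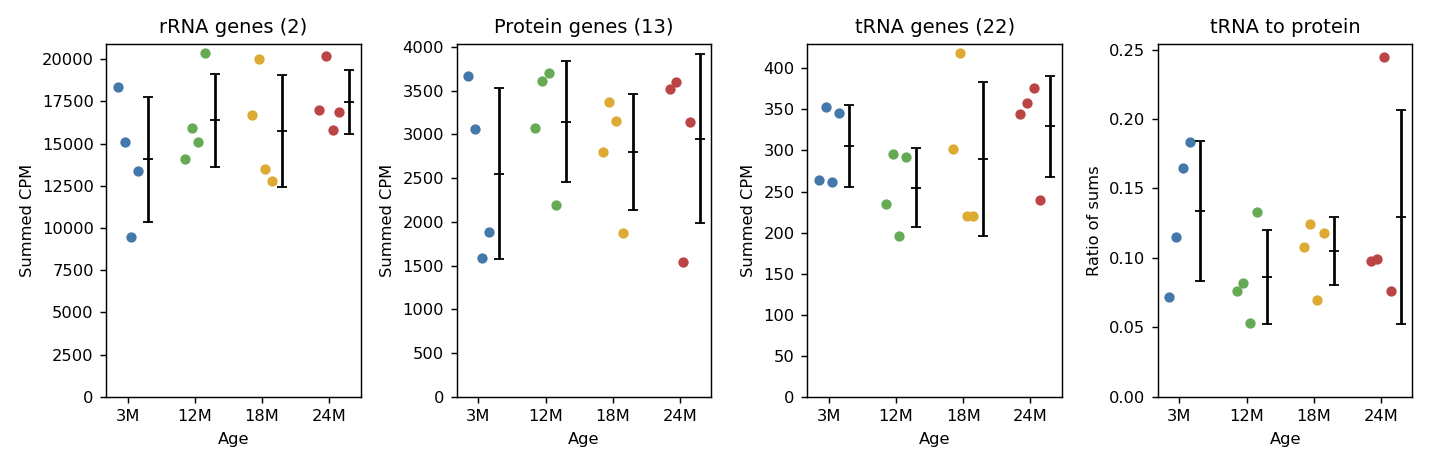
Summed CPM of the 2 ribosomal RNA, 13 protein and 22 transfer RNA genes, and the ratio of transfer RNA to protein sums, with 1 point per library and the mean ± SD of each age beside it. The ages overlap in every panel, and 24M replicate 3 has the highest ratio, 0.244.

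Among nuclear genes that act on the mitochondrial genome, 1 passed the test, which is no more than the share of all genes called. Of 9 tested genes of mitochondrial transcription, 20 of mitochondrial RNA processing, 14 of transfer RNA modification, 23 transfer RNA synthetases and 12 regulators of biogenesis, none was called at 12M, 18M or 24M against 3M by edgeR, beside 1.39%, 2.64% and 4.25% of all genes called at these ages. Of 15 tested genes of mitochondrial DNA maintenance, 1 rose: Dna2, a helicase and nuclease that acts in DNA replication and repair in both nucleus and mitochondria. Dna2 measured 14.4, 13.4, 14.5 and 15.5 CPM in 24M libraries, against 11.5, 9.97, 10.6 and 11 CPM in 3M libraries, with no overlap. Its log2 fold change was 0.42 (adjusted p = 0.00338, SE 0.078) at 24M and 0.33 (adjusted p = 0.033, SE 0.078) at 18M by edgeR. The call at 18M was lost in 14 of 30 alternatives and that at 24M in 2 of 30. Polrmt, the mitochondrial RNA polymerase, averaged 45.7 ± 8.85 CPM at 24M, against 40.3 ± 6.12 at 3M, and its log2 fold change was 0.18 (adjusted p = 0.702, SE 0.15). Tfam, which packages the mitochondrial genome and starts its transcription, averaged 20.7 ± 1.92 CPM, against 22 ± 1.56 at 3M, and its log2 fold change was -0.093 (adjusted p = 0.736, SE 0.085). The initiation factor Tfb2m had a log2 fold change of -0.017 (adjusted p = 0.97, SE 0.088) at 24M, and the elongation factor Tefm -0.071 (adjusted p = 0.897, SE 0.13). Lrpprc and Slirp, partners that stabilise mitochondrial messenger RNAs, had 0.10 (adjusted p = 0.804, SE 0.11) and -0.28 (adjusted p = 0.34, SE 0.13), and the coactivator Ppargc1a had 0.014 (adjusted p = 0.992, SE 0.20).

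Nuclear genes of the respiratory chain were set beside the mitochondrial ones. None of 68 tested was called at 12M, 18M or 24M by edgeR, beside 1.39%, 2.64% and 4.25% of all genes tested. Their median log2 fold change was -0.15 at 12M, -0.19 at 18M and -0.24 at 24M. For the 13 mitochondrial protein genes, without their nuclear copies, it was 0.27, 0.16 and 0.069. For all genes tested it was -0.0032, 0.0067 and 0.011. The value at 24M depended on the treatment of the copies. With their reads added, mt-Atp6 went from -0.22 to 0.20 at 24M, mt-Co2 from -0.017 to 0.13 and mt-Co3 from 0.065 to 0.24. The protein sum used below also leaves out the reads of the copies. The length slope averaged -0.030 ± 0.012 in 3M libraries, against 0.023 ± 0.052 at 12M, 0.0026 ± 0.057 at 18M and 0.0038 ± 0.062 at 24M. Its part in this contrast was not tested. The ratio of the mitochondrial protein sum to the nuclear sum was 1.74, 1.5, 0.562 and 1.48 in 24M libraries, against 1.34, 1.12, 0.589 and 0.672 in 3M libraries. 3 of the 4 libraries at 24M lay above every 3M library and 24M replicate 3 below every one. The difference was 0.47 on the log2 scale, with an exact p of 0.286 and an adjusted p of 0.643. Its means were 0.932 ± 0.361 in 3M, 1.33 ± 0.451 in 12M, 1.17 ± 0.314 in 18M and 1.32 ± 0.52 in 24M libraries, with an exact p of 0.171 at 12M and 0.314 at 18M.

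The libraries carried the markers of rods: all 15 listed passed the filter. Of these 15 rod markers, 2 were called at 24M against 3M by edgeR, beside 4.25% of all genes tested, and the others were not. These 2, Pdc and Gngt1, fell, with log2 fold changes of -0.92 (adjusted p = 0.000408, SE 0.13) and -0.45 (adjusted p = 0.0376, SE 0.12) by edgeR. Of 6 cone markers tested 1, Gnb3, rose at 24M, by 0.97 (adjusted p = 0.00232, SE 0.17) by edgeR. The other 5 cone markers tested were not called. Opn1sw, the short-wave cone opsin, averaged 6.21 ± 1.52 CPM at 24M, against 7.12 ± 3.54 at 3M, and cone arrestin Arr3 11.2 ± 1.93, against 10.4 ± 5.14. The Gngt1 call was lost in 12 of 30 alternatives. Summed CPM over the libraries was 56.1 to 122 for 8 cone markers, 229.9 to 296 for 10 bipolar cell markers, 29.4 to 57.6 for 6 endothelial markers, 4.28 to 8.23 for 6 markers of the pigment epithelium and 2.52 to 5.63 for 8 of microglia. For 10 Müller glia markers the sum was 125 to 457 CPM. None of these 10 was called at a later age. Their median log2 fold change was 0.49 at 12M, 0.36 at 18M and 0.46 at 24M, and the ranges of the sum overlapped between ages. No marker averaged 0 CPM, and none of the pigment epithelium or microglia markers passed the filter.

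The authors' deposited table of comparisons holds 24 of the 37 genes, and none has an adjusted p under 0.05, although 26.7% of its 11826 genes do. In that deposited table by the authors, the lowest adjusted p of a mitochondrial gene is 0.0698 for mt-Nd4l, with log2 differences from 3M of 0.87 at 12M, 0.027 at 18M and 0.40 at 24M. The authors' deposited table gives mt-Th an adjusted p of 0.0701 and differences of -0.53, -0.14 and 0.38 at the same ages. The authors' normalized table has 13 of the 16 libraries, and the 3 it leaves out, 12M replicate 4, 18M replicate 3 and 24M replicate 3, include 2 of the 5 with low mt-Cytb.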

How the data were processed

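For 16 libraries the authors deposited estimated counts of each transcript. Tools listed in the submitters' processing notes, without role or order, are limma 3.32.2, edgeR 3.13.9 and kallisto 0.42.5, and the build is GRCm38.p4. The authors also deposited gene CPM and normalized CPM of 13 libraries, both read here as a signal, and a table that gives, per the file headers, log2 differences from 3M, an F score, a p-value and an adjusted p-value. Per the labels' protocols, sorted cells were over 98% pure, and libraries were amplified for 13 cycles. Estimated counts of 111896 of 113468 transcripts were summed to 45038 genes by GENCODE M21 identifiers and rounded. Unmatched transcripts held 0.73% to 1.08% of counts. Coordinates of the members are the same in the deposited table and in that annotation. Genes with 5 CPM in 4 libraries were tested in R 4.3.3 with edgeR 4.0.16, using TMM factors, a mean per age over 16 libraries and Benjamini-Hochberg adjustment at 0.05. On simulated counts for 24M against 3M over 12177 genes, it recovered 40.3%, 97% and 100.0% of genes changed 1.5-fold, 2-fold and 4-fold, and 7.6% of its calls were false. Every simulated gene had the same biological coefficient of variation, 0.17. The tested mitochondrial genes varied more within ages than the median gene, so these recoveries cannot be carried over to them. CPM in the text uses TMM factors, and spreads of log2 CPM use a pseudocount of 0.5. Nuclear copies were found with BLAST 2.17.0. Correlations used 100000 permutations. Named nuclear genes are called members of gene lists and 7 regulators of mitochondrial transcription, RNA stability and biogenesis, and copies with a mean of at least 5 CPM. The members and lists were chosen with earlier results of these data known. No 2 libraries agreed within sampling noise (lowest chi-square per degree of freedom 8.99). Alternatives were DESeq2 1.42.0, limma 3.58.1 voom with and without quality weights, other normalizations, filters and pseudocounts, copies added, a replicate block, a length slope covariate, the authors' 13 libraries, and each library left out.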

Additional observations from a re-analysis of the deposited data

Results flagged for a closer look

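7 of 120 groups of 4 libraries held a library far from the other 3, by a gap to the nearest library above 0.83 of the group's whole range, on the log2 scale. Chance flags about 1 in 20 groups, and the values share libraries and genes. mt-Nd1 measured 108 CPM in 24M replicate 3, below the other 24M libraries at 274 to 296 CPM. mt-Co3 measured 213 CPM in 12M replicate 4, above the other 12M libraries at 151 to 157 CPM. mt-Nd3 measured 22.2 CPM in 12M replicate 1, below the other 12M libraries at 29.5 to 30.9 CPM. mt-Nd6 measured 51.7 CPM in 18M replicate 4, below the other 18M libraries at 95.7 to 103 CPM. mt-Cytb measured 203 CPM in 24M replicate 3, below the other 24M libraries at 557 to 608 CPM. The summed protein genes measured 1539 CPM in 24M replicate 3, below the other 24M libraries at 3143 to 3599.8 CPM. The ratio of mitochondrial protein to nuclear respiratory chain sums measured 0.562 in 24M replicate 3, below the other 24M libraries at 1.48 to 1.74.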

How the results depend on the processing

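The count of 0 called members changed under 5 alternatives, and the cause was not tested. Limma voom with quality weights called 8 at 12M, 2 at 24M (mt-Rnr2 and mt-Co1) and 2 for any age (mt-Nd5 and mt-Nd4l), among 5827, 3311 and 5434 of 12177 genes. The length slope covariate called mt-Th alone at 24M and for any age, 1 each (among 1441 and 916 genes), and DESeq2 called 1 for any age, also mt-Th (among 665). The authors' 13 libraries gave 3 at 12M, among 4623 of 12050 genes: mt-Tv, lower, and mt-Nd5 and mt-Nd4l, higher. Leaving out each library gave 0 to 1 for any age, the 1 being mt-Th without 18M replicate 2, and 0 in the other 4 tests. A minimum of 1 CPM or no filter called 0. Of the fold changes followed under the alternatives, those that turned in sign were all uncalled. With the length slope covariate, mt-Cytb had -0.039, mt-Nd1 -0.074 and mt-Nd4l -0.27 at 24M, and mt-Nd4 -0.10 and mt-Cytb -0.15 at 12M. At 24M, mt-Co2 had 0.0024 by limma voom, 0.067 with quality weights, 0.13 with copies added, 0.024 under the replicate block and 0.18 in the 13 libraries, and mt-Atp6 0.20 with copies added and 0.0074 in the 13. Leaving out libraries gave -0.50 to 0.021 for mt-Atp6, -0.24 to 0.35 for mt-Co2 and -0.12 to 0.32 for mt-Nd4l. Those signs turned without 3M replicate 1 or 24M replicate 3 (mt-Atp6), 3M replicate 2 or 24M replicate 3 or 4 (mt-Co2), and 3M replicate 3 or 4 or 24M replicate 1 or 2 (mt-Nd4l). Of the sums, the transfer RNA sum at 18M was 0.00097 in the 13 libraries and -0.31 to 0.00097 with libraries left out, the protein sum at 18M -0.018 to 0.38 and the transfer RNA to protein ratio at 24M -0.47 to 0.085. Signs turned without 18M replicate 3 or 4 for the first, 3M replicate 3 for the next, and 3M replicate 3 or 4 or 24M replicate 4 for the last. No sum reached an adjusted p of 0.05 under any alternative. Replicate numbers did not pair the libraries, since same-numbered libraries correlated at -0.74 to 0.73 and 4 of 16 correlated best with their own number. The replicate block called 0 members, and the lowest adjusted p of a sum under it was 0.75, where 16 sign flips allow no p below 0.125. The block lost the calls of Dna2 and Gm29216 at 18M and of Gngt1 at 24M. Precision for the untested transfer RNA genes is limited by counts as low as 5 in a library.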

Other observations

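Lars2, the mitochondrial leucine transfer RNA synthetase, measured 4417 to 11582 CPM over the 16 libraries, while the other 22 synthetases of the list summed to 585 to 652 CPM. It averaged 6287 ± 1563 CPM at 24M, against 9073 ± 664 CPM at 3M, with a log2 fold change of -0.53 (adjusted p = 0.414, SE 0.27) by edgeR. It was singled out after its values were seen. Whether all its counts came from its messenger RNA was not tested.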
